A study of Homo sapiens with 8 samples.

Results

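The CXC chemokine genes of chromosome 4 considered here are CXCL8, CXCL6, CXCL1, CXCL5, CXCL3 and CXCL2 in band 4q13, and CXCL9, CXCL10 and CXCL11 in band 4q21. They are 9 of the 20033 protein-coding genes of the RefSeq GRCh38.p14 gene table. They were chosen by family and location and not by a cutoff on their values, although earlier results of these data were known. For each gene, the ATAC-seq peaks that overlapped the gene body or the 50 kb on either side by at least 1 bp were taken from every sample's peak list. ATAC-seq marks open chromatin, where a transposase can insert sequencing adapters.

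The data came from H1975 and HCC44, both human lung cancer cell lines whose genotype is labelled WT. Each line received DMSO, the solvent, or ACBI1 at a labelled 1 mM, with 96 h as the labelled time and 2 replicates in each of the 4 groups. ACBI1 brings SMARCA2, SMARCA4 and PBRM1, subunits of the SWI/SNF chromatin remodelling complexes, to a ubiquitin ligase for degradation. Each line is a single tumour's line, and the labels do not say whether replicates were separate cultures, so p-values measure only the spread between these samples. No protein or RNA level was used here, and loss of the 3 targets was not checked.

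CXC chemokines are small secreted proteins that direct the migration of leukocytes. The 4q13 genes encode ELR-motif ligands, which attract neutrophils through the receptors CXCR2 and, for CXCL8 and CXCL6, also CXCR1. The 4q21 genes encode interferon-inducible ligands of CXCR3, the receptor on activated T cells and NK cells. Tumour and epithelial cells make the 4q13 ligands after inflammatory signals, with NF-kB binding close to the start sites.

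The upstream sequences of the 6 genes at 4q13 are shown because listed peaks at their start sites behaved differently although all carried the same NF-kB-type match. The letters come from RefSeq promoter sequences of GRCh38.p14, read 5′ to 3′ on the strand of the gene. Capitals mark matches to GGNNNTTCC, a general NF-kB form, with 25 bases on either side of the first match. CXCL8 is at chr4:73740453-73740511 (plus strand), CXCL6 at chr4:73836564-73836622 (plus) and CXCL1 at chr4:73869290-73869348 (plus). CXCL5 is at chr4:73998734-73998792 (minus), CXCL3 at chr4:74038734-74038792 (minus) and CXCL2 at chr4:74099239-74099297 (minus).
CXCL8: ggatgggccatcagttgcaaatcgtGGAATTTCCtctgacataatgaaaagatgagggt
CXCL6: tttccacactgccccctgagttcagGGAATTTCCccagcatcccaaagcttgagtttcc
CXCL5: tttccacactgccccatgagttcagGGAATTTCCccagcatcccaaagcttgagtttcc
CXCL1: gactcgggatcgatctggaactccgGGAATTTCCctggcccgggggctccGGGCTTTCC
CXCL3: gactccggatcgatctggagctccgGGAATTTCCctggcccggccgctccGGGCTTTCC
CXCL2: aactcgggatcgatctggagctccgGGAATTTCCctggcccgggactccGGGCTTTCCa

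All 6 stretches held the letters GGAATTTCC. Counting the base before the start site as −1, the match lay at −91 to −83 in CXCL8, −89 to −81 in CXCL6, −90 to −82 in CXCL5, −78 to −70 in CXCL1 and CXCL3, and −77 to −69 in CXCL2. Its reverse complement also has the form GGNNNTTCC, so a match on both strands is 1 site. CXCL1, CXCL3 and CXCL2 held a second match, GGGCTTTCC, at −53 to −45. The CXCL6 and CXCL5 stretches were identical at 58 of 59 bases, and those of CXCL1 and CXCL3 at 55 of 59. Against CXCL2, CXCL1 matched at 48 bases and CXCL3 at 47. These counts compare bases position by position without gaps and include the shared GGAATTTCC. The matches of CXCL2 lie closer together than those of CXCL1 and CXCL3, so its later bases are out of step. CXCL8 stood apart, with 24 identical bases at most against any other 4q13 gene.

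The form GGNNNTTCC was found, searching both strands, in 8 of the 9 promoters and in 3443 of 15842 RefSeq promoters of the same length of 300 bases (21.7%). CXCL9 was the promoter without it. The AP-1 form TGANTCA was found in CXCL8 and CXCL11, and in 5.75% of all promoters. The interferon-response form GAAANNGAAA was found in CXCL9 and CXCL10, and in 3.18% of all promoters. A match is a description of letters, and binding was not measured.

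The full 250 bases upstream of CXCL8 and CXCL10 are given as the examples of the 2 clusters, CXCL8 because its start-site peak differed between the lines under ACBI1 and CXCL10 because none of the 8 samples had a peak there. They lie at chr4:73740319-73740568 (plus) and chr4:76023498-76023747 (minus). In CXCL8 the capitals mark an AP-1 match at −137 to −131 and the NF-kB match. In CXCL10 they mark, in order, the interferon-response match at −221 to −212 and 3 matches to the NF-kB form, the last of them on the opposite strand.
CXCL8: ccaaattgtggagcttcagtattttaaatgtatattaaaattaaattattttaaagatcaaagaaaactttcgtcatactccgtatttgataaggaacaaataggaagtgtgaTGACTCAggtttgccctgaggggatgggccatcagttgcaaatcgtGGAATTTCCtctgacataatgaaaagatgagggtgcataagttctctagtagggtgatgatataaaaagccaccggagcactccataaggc
CXCL10: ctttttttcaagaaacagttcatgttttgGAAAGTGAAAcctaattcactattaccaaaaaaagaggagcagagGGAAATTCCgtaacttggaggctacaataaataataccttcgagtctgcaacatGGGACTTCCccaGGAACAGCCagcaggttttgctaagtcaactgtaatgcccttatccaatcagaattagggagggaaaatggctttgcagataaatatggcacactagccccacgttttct

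The lists themselves differed in length, and every count below is a count of listed peaks. H1975 had 43525 and 41027 peaks under DMSO and 27682 and 22133 under ACBI1. HCC44 had 50347 and 49945 under DMSO and 26313 and 24862 under ACBI1. The number of reads is unknown, so a peak that is missing from a list is not a measurement of closed chromatin. Peak strength is therefore given as a percentile within its own list, by the authors' −log10 q unless the fold enrichment is named, with 100 as the strongest. A percentile also moves with the length of the list, so percentiles under DMSO and ACBI1 describe each list and show no change. The rank by −log10 q, with 1 as the strongest, is given beside some of them. As a check of the labels, the epithelial genes KRT8, KRT18 and EPCAM had a peak within 1 kb of a gene end in all 8 samples and CDH1 in 7, whereas the leukocyte gene PTPRC and the endothelial genes PECAM1 and CDH5 had none in any sample. The leukocyte marker CD14 had such a peak in 8 samples and CD3E in 3. The mesenchymal genes VIM and ZEB1 had one in 8.

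The start sites were compared first. Under DMSO, a peak lay within 1 kb of the start in both replicates for 4 of the 9 genes in H1975 (CXCL8, CXCL1, CXCL3 and CXCL2) and for 6 of 9 in HCC44, where CXCL6 and CXCL5 were added. Over 15842 protein-coding start sites the share was 60.7% in H1975 and 61.3% in HCC44. Under ACBI1, all 4 were listed again in both H1975 samples and 5 of the 6 in both HCC44 samples. The exception was CXCL8 in HCC44, which had a start-site peak in both DMSO samples but no ACBI1 sample. None of 4 start sites in H1975 met that description, against 1.82% of all start sites with a peak in both DMSO samples, and 1 of 6 did in HCC44, against 4.14%.

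**Figure D1:**
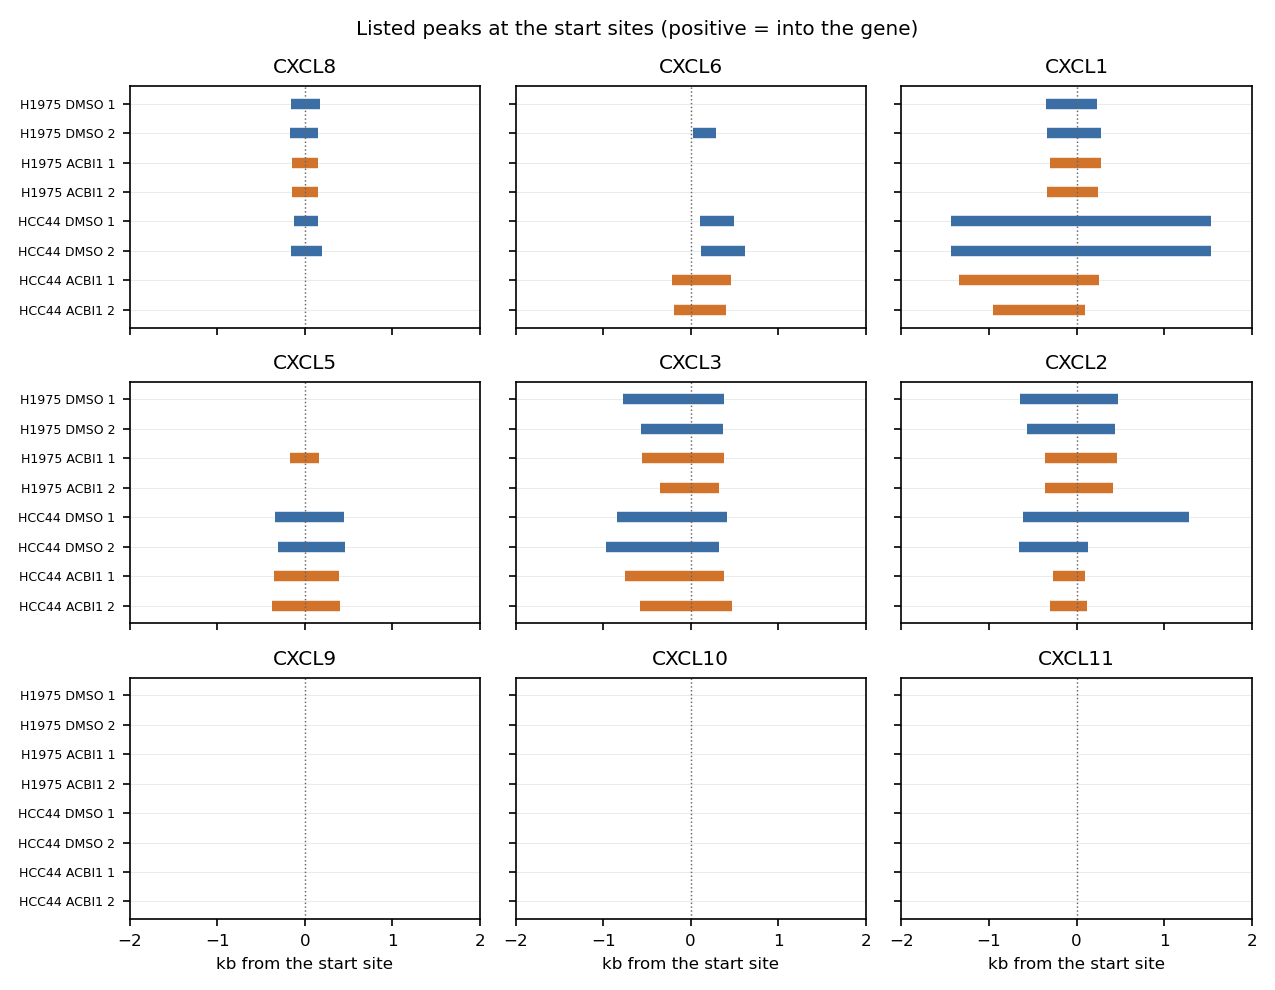
Listed peaks within 2 kb of the start site of each of the 9 genes, by sample. The x axis is the distance from the start site in the direction of transcription, and each bar is a peak drawn to scale, blue for DMSO and orange for ACBI1. CXCL1, CXCL3 and CXCL2 have a peak in all 8 samples, and CXCL8 lacks one in the 2 HCC44 samples under ACBI1. CXCL9, CXCL10 and CXCL11 have none.

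CXCL8 encodes interleukin-8, the main human neutrophil attractant, and lies at chr4:73740569-73743716 on the plus strand. In H1975 its start-site peak was 332 and 325 bp wide under DMSO and 306 and 291 bp under ACBI1. Its percentile was 70.9 and 73.3 under DMSO and 51.5 and 21.6 under ACBI1. Its rank was 12650 and 10959 under DMSO and 13419 and 17356 under ACBI1. The H1975 peak was thus listed in all 4 samples. In HCC44 the peak was 277 and 356 bp wide under DMSO, at percentiles 43.7 and 41.2. By fold enrichment the DMSO percentiles were 95.0 and 98.2 in H1975 and 32.1 and 24.9 in the HCC44 samples. The 2 HCC44 peaks ranked 28326 and 29344 in their lists, which lies below the 26313 and 24862 peaks that the ACBI1 lists of that line held in all. The HCC44 DMSO start-site peaks of CXCL1 (41555 and 43230) and CXCL6 (39664 and 43902) also ranked below those lengths. Both ACBI1 lists of the line held a peak at each of these starts. The start-site peaks of CXCL5, CXCL3 and CXCL2 ranked within those lengths. Why the CXCL8 peak was not listed was not tested.

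The peaks at the CXCL8 start covered the NF-kB match in the 6 samples that had them, and the AP-1 match in 5 of those 6, the first HCC44 DMSO sample being the exception. One of the HCC44 ACBI1 samples had instead a peak at chr4:73743934-73744336, 3365 bp past the start and beyond the 3′ end of the gene. That peak was found in no other sample.

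CXCL1, CXCL3 and CXCL2, ligands of CXCR2, kept a start-site peak in all 8 samples, and each peak covered the NF-kB match. The CXCL1 peak (gene at chr4:73869393-73871308, plus strand) was 577, 623, 578 and 584 bp wide in the 4 H1975 samples, DMSO first. In HCC44 it was 2966 and 2973 bp wide under DMSO and 1597 and 1053 bp under ACBI1. HCC44 thus had the wider peak in every sample, and the widths under DMSO and ACBI1 did not overlap in that line. How often this occurs over the genome was not counted. Its percentile was low throughout, 10.6 to 24.8 for the H1975 samples and 13.4 to 40.0 for those of HCC44.

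CXCL2 (chr4:74097040-74099195, minus strand) had a peak of 1123 and 1005 bp under DMSO and 824 and 775 bp under ACBI1 in H1975. In HCC44 the widths were 1901 and 788 bp under DMSO and 366 and 424 bp under ACBI1. Its H1975 percentile was 81.4 and 80.0 under DMSO, against 72.5 and 63.2 under ACBI1. The HCC44 percentile was 72.3 and 63.8 under DMSO, against 20.5 and 47.7 under ACBI1. Its rank was 8101 and 8222 under DMSO against 7627 and 8141 under ACBI1 in H1975, and 13949 and 18065 against 20913 and 13005 in HCC44. In both lines the ACBI1 peaks at CXCL2 were narrower than the DMSO peaks without overlap. The same held in both lines at the starts of CXCL3 and of SDAD1, a neighbouring gene at 4q21. It also held at the regions upstream of CXCL3 and CXCL2 that were listed in all 8 samples. The share of kept regions over the genome with such narrowing was not counted. The ranks overlapped in HCC44, and in H1975 all 4 lay between 7627 and 8222.

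The CXCL3 gene lies at chr4:74036589-74038689 on the minus strand. The percentile of its start-site peak lay between 60.0 and 69.8 in H1975 and between 62.6 and 70.4 in HCC44. Its rank was 17414 and 12408 under DMSO against 9022 and 8226 under ACBI1 in H1975, and 15608 and 17649 against 9855 and 7368 in HCC44. The percentiles of the treatments overlapped in each line and the ranks did not. Its width was 1155 and 948 bp under DMSO and 930 and 682 bp under ACBI1 in H1975, and 1255 and 1291 bp against 1131 and 1049 bp in HCC44.

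CXCL5 and CXCL6 differed between the lines. CXCL5 (chr4:73995642-73998677, minus strand), a neutrophil attractant first found in epithelial cells, had a start-site peak in all 4 HCC44 samples, 795 and 773 bp wide under DMSO and 746 and 780 bp under ACBI1. Its percentile there was 88.6 and 86.4 under DMSO and 70.4 and 71.6 under ACBI1, the highest of the 9 genes in HCC44 under DMSO. In H1975 a single ACBI1 sample had a 338 bp peak at percentile 0.502, among the weakest of its list, and the other 3 samples had none.

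CXCL6 (chr4:73836678-73838760, plus strand), the closest relative of CXCL5, also had a peak in all 4 HCC44 samples and in only 1 H1975 sample, which was a DMSO sample. In HCC44 it was 398 and 500 bp wide under DMSO and 670 and 602 bp under ACBI1, at percentiles 21.2 and 12.1 against 42.9 and 35.6. The DMSO peaks began 102 and 118 bp inside the gene, and the ACBI1 peaks began before the start, at −211 and −193. Only the ACBI1 peaks therefore covered the NF-kB match. Among the genes considered at 4q13, only CXCL6 had an HCC44 start-site peak wider in each ACBI1 list than in either DMSO list. The start of PF4V1, a neighbouring gene, met the same description in HCC44, at 313 and 327 bp under DMSO against 508 and 396 bp under ACBI1.

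Outside the start sites, the 2 lines differed more. The 6 windows at 4q13 join into 2 stretches, chr4:73690569-73921308 around CXCL8, CXCL6 and CXCL1 and chr4:73945642-74149195 around CXCL5, CXCL3 and CXCL2. H1975 had 9 and 10 peaks there under DMSO and 9 and 7 under ACBI1. HCC44 had 22 and 23 under DMSO and 11 and 13 under ACBI1. The HCC44 groups did not overlap, and the H1975 groups shared the value 9.

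**Figure D2:**
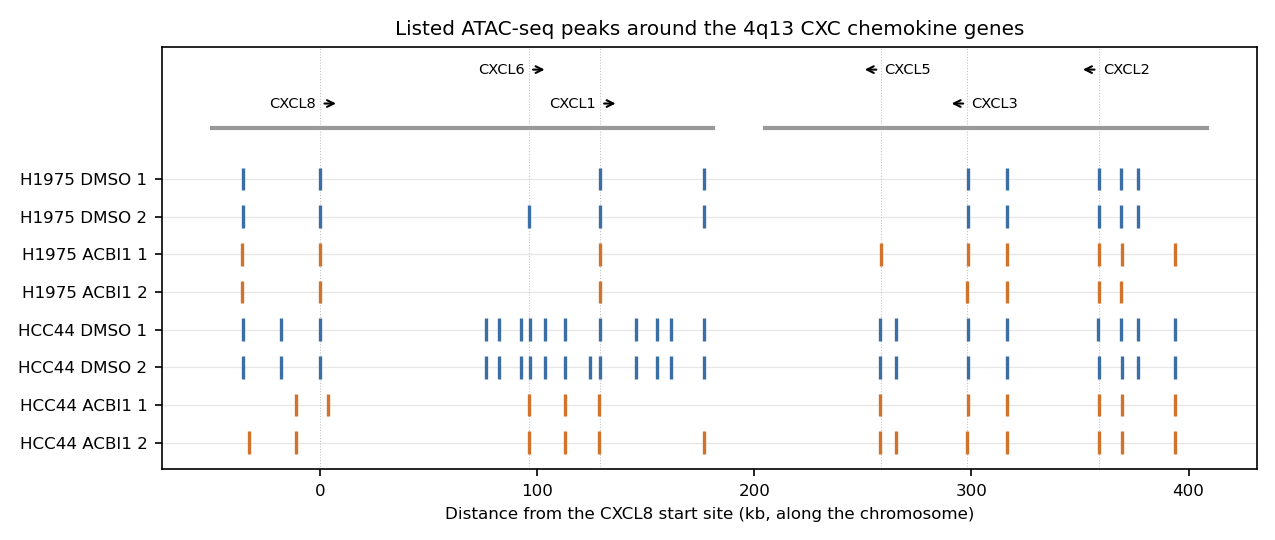
Positions of the listed peaks across the joined windows at 4q13, with 1 line per sample, blue for DMSO and orange for ACBI1. The x axis is the distance from the CXCL8 start along the chromosome, ticks mark peak midpoints and not widths, grey bars are the joined windows, arrows show the direction of transcription and dotted lines the start sites. The peaks between CXCL8 and the end of the first window are dense in the 2 HCC44 DMSO samples, and most are absent from the other 6.

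The mean peak number under ACBI1 minus DMSO was −1.5 in H1975 (9.5 ± 0.707 to 8 ± 1.41, SD, n = 2) and −10.5 in HCC44 (22.5 ± 0.707 to 12 ± 1.41). Averaged over the lines the difference was −6 peaks, against a replicate SD of 1.12 pooled over the 4 groups (two-sided exact permutation test within lines, p = 0.111). With 36 arrangements p cannot go below 0.0556, so no result here can pass 0.05. The change in HCC44 was 9 peaks further down than in H1975 (exact permutation test of treatment labels within lines, p = 0.333). That permutation assumes no treatment effect in either line, so it cannot decide whether the changes of the lines differ.

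The covered length at 4q13 was 6476 and 6297 bp in H1975 under DMSO and 5180 and 3877 bp under ACBI1. In HCC44 it was 18340 and 17984 bp under DMSO and 7735 and 8052 bp under ACBI1. Neither line's groups overlapped. The mean difference over the lines was −6063 bp against a pooled replicate SD of 495 bp, at the smallest possible p (exact permutation test, p = 0.0556). In lists limited to their 22133 strongest peaks by −log10 q, the length of the shortest list, that difference was −459.5 bp (exact permutation test, p = 0.389).

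Because the ACBI1 lists were shorter as a whole, the peaks were also counted per 10000 listed peaks. That value was 2.07 and 2.44 in H1975 under DMSO and 3.25 and 3.16 under ACBI1, and in HCC44 4.37 and 4.61 under DMSO and 4.18 and 5.23 under ACBI1. The mean difference over the lines was 0.586 per 10000 (exact permutation test, p = 0.167), of the opposite sign to the plain count. When every list was limited to 22133 peaks, the difference in peak number was 2.25 (exact permutation test, p = 0.167). The sign of the difference in peak number thus depended on whether list length was taken into account.

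**Figure D3:**
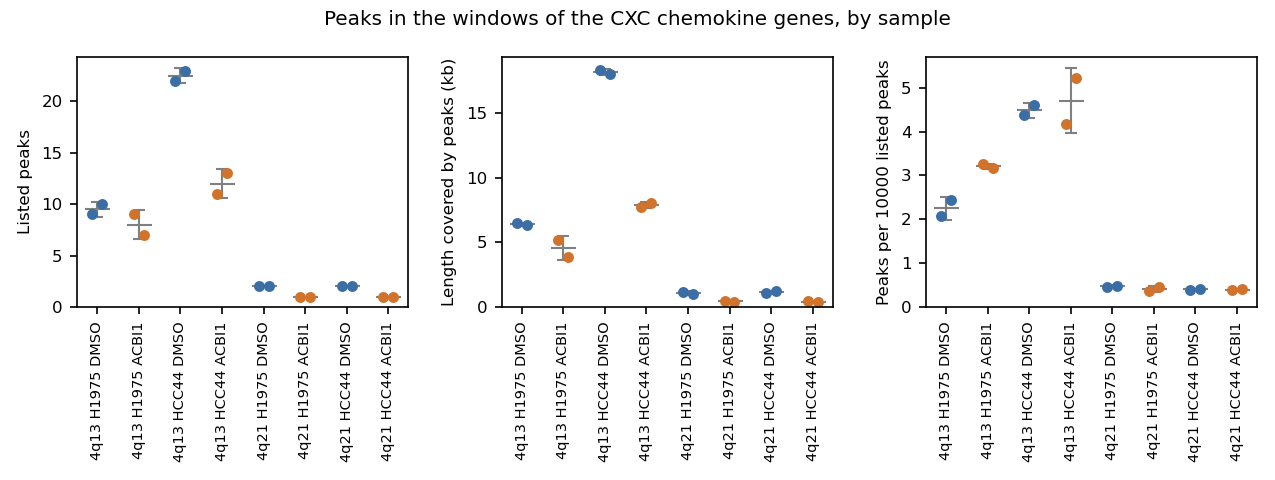
Peak number, covered length and peaks per 10000 listed peaks in the joined windows, by group. Points are the 8 samples and grey lines are the mean with SD (n = 2), all on axes from 0, blue for DMSO and orange for ACBI1. The plain count and the covered length at 4q13 are highest in HCC44 under DMSO, and the count per 10000 listed peaks is not lower under ACBI1 in either line's mean at 4q13.

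Gene by gene, the window of CXCL8 held 2 peaks in all 4 H1975 samples, and in HCC44 3 in each DMSO and 2 in each ACBI1 sample. The CXCL6 window held 1 or 2 peaks in H1975 under DMSO and 1 under ACBI1, against 8 and 9 in HCC44 under DMSO and 3 in each sample under ACBI1. The CXCL1 window held 2 and 3 peaks in H1975 under DMSO and 1 in each under ACBI1, against 10 and 11 in HCC44 under DMSO and 3 and 4 under ACBI1. The windows of CXCL6 and CXCL1 overlap, and these counts share peaks. The CXCL5, CXCL3 and CXCL2 windows differed less. CXCL5 held 3 peaks in each HCC44 DMSO sample and 2 and 3 under ACBI1, CXCL3 held 4 against 3 and 4, and CXCL2 held 5 against 4.

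In H1975, 4 of the 9 genes (CXCL1, CXCL9, CXCL10 and CXCL11) had fewer window peaks in each ACBI1 sample than in either DMSO sample, and 43.3% of all protein-coding genes did. In HCC44 the count was 7 of 9, all but CXCL5 and CXCL3, against 55.1% of all genes. None of the 9 had more peaks in both ACBI1 samples in either line, a description that 1.45% of all genes met in H1975 and 1.79% in HCC44. The H1975 share was near the background. The HCC44 share was above it, but the windows overlap, so the 9 genes are not 9 independent counts.

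Under DMSO, all 6 genes at 4q13 and none at 4q21 had more window peaks in both HCC44 samples than in both H1975 samples, which is 6 of 9 against 33.2% of all genes. The 4q13 windows held 13 more peaks and 11776 bp more covered length in HCC44 (exact permutation test, p = 0.333 for each, the smallest that 6 arrangements allow). Per 10000 listed peaks, the line difference was 2.23. Under ACBI1 the difference between the lines was 4 peaks. In lists limited to 22133 peaks the DMSO difference was −0.5 peaks.

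To follow single positions, overlapping peaks of all 8 samples were merged into 29 regions, 26 at 4q13 and 3 at 4q21. A region is called kept in a line if all its DMSO and ACBI1 samples listed it, and DMSO-only if both DMSO samples and neither ACBI1 sample did. In H1975, 11 regions had a peak in both DMSO samples, of which 8 were kept and 3 (27.3%) were DMSO-only, against 37.2% DMSO-only among all such regions of the line. In HCC44, 24 regions had a peak in both DMSO samples, of which 10 were kept, 2 were listed in 1 ACBI1 sample and 12 (50%) were DMSO-only, against 49.2% of all such regions.

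Position relative to genes went with these counts. More than 1 kb from any protein-coding gene end, 3 of 6 regions in H1975 and 11 of 16 in HCC44 were DMSO-only, where the shares over the genome were 50.2% and 62.9%. Within 1 kb of a gene end, 0 of 5 in H1975 and 1 of 8 in HCC44 were DMSO-only, the 1 being the CXCL8 start. The genome-wide shares for such regions were 4.23% and 8.72%.

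At 4q13 all 9 regions that H1975 listed in both DMSO samples were also listed in both HCC44 DMSO samples. HCC44 listed a further 13, of which 12 had no peak in either H1975 DMSO sample. Of these 13, 8 were DMSO-only in HCC44, and of the 9 shared regions 3 were. The share over all regions of the line was 49.2%. Genome-wide shares for shared and line-specific regions were not computed, so this split cannot be called a trait of the locus. The line-specific regions were concentrated around CXCL6 and CXCL1. Over the joined windows of these 2 genes, 134.6 kb, HCC44 had 11 regions in both DMSO samples, of which 7 were DMSO-only. All 7 lay more than 1 kb from a gene end, and so did the 1 further region that was listed in 1 ACBI1 sample. For such regions the DMSO-only share over the line was 62.9%, and for all regions 49.2%. The 3 kept regions, to which the 62.9% does not apply, were the starts of CXCL6, CXCL1 and PF4V1, a platelet factor gene between them. H1975 had only 2 regions in both DMSO samples over the same stretch.

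The 7 DMSO-only regions of HCC44 around CXCL6 and CXCL1 lay 19.4, 13.6 and 3.54 kb before and 6.84 kb after the CXCL6 start, and 16.3, 25.9 and 32.6 kb after the CXCL1 start. None of the 7 had a peak in any H1975 sample.

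**Figure D4:**
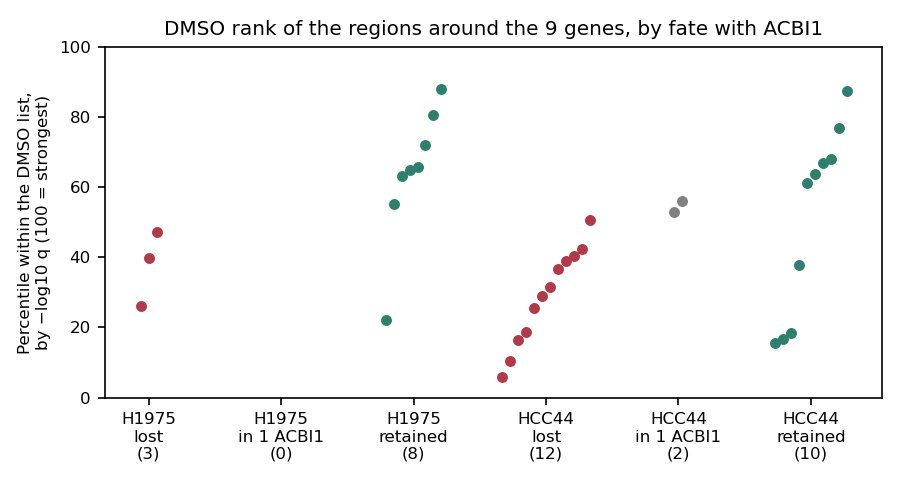
Mean percentile by −log10 q under DMSO (y axis) for every region listed in both DMSO samples of a line, grouped on the x axis by line and by what was listed under ACBI1, with the number of regions in brackets. Each point is a region, red where it was DMSO-only (lost on the axis), grey where it was listed in 1 ACBI1 sample and green where it was kept (retained on the axis), and points are spread sideways in order of their value. DMSO-only regions reach at most 47.2 in H1975 and 50.7 in HCC44, and the CXCL6, CXCL1 and PF4V1 starts are kept in HCC44 at 18.5 or less.

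By −log10 q, DMSO-only regions ranked lower under DMSO than most kept ones. In HCC44 their mean percentile ran from 5.97 to 50.7 with a median of 30.3 (12 regions), against 15.5 to 87.5 with a median of 62.5 for the 10 kept regions. In H1975 the medians were 39.9 for the 3 DMSO-only and 65.3 for the 8 kept regions. By fold enrichment the order was the reverse in H1975, with median percentiles of 73.6 for DMSO-only and 67.7 for kept regions. In HCC44 the fold enrichment medians were 44.7 and 54.4. The median width in HCC44 was 476 bp for DMSO-only and 931 bp for kept regions. Exceptions in HCC44 were the starts of CXCL1, CXCL6 and PF4V1, which were kept although their mean percentiles were 15.5, 16.7 and 18.5, lower than the 42.5 of the DMSO-only CXCL8 start. A region in MTHFD2L, 34.8 kb from the CXCL2 start, was also kept there at 37.8, and in H1975 the CXCL1 start was kept at 22.0.

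The highest-ranking DMSO-only region of HCC44 was chr4:73704480-73705376, 35.2 kb before the CXCL8 start and inside the annotated long noncoding gene INKILN. Its peaks were 867 and 883 bp wide under DMSO at percentiles 52.8 and 48.7. H1975 listed the same region in all 4 samples, at 822 and 710 bp under DMSO and 277 and 188 bp under ACBI1. Its H1975 percentile was 70.0 and 61.3 under DMSO and 27.6 and 15.2 under ACBI1. This region and the CXCL8 start were the only 2 that H1975 kept and HCC44 listed under DMSO only. The rank of the INKILN region in H1975 was 13059 and 15865 under DMSO and 20050 and 18777 under ACBI1.

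A single region of the 29 had a peak in both ACBI1 samples of a line and in neither DMSO sample. It lay at chr4:73729330-73729796 in HCC44, 10.8 kb before the CXCL8 start, with peaks of 467 and 368 bp at percentiles 19.5 and 34.6. H1975 had no peak there.

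One region at 4q13 was DMSO-only in both lines, chr4:74117080-74117482, in the body of MTHFD2L, a mitochondrial folate enzyme gene, 17.9 kb from the CXCL2 start. Its percentiles under DMSO were 54.2 and 40.1 in H1975 and 47.4 and 30.5 in HCC44. A region 47.7 kb past the CXCL1 start, chr4:73917133-73917672, was DMSO-only in H1975 and was listed in both DMSO and 1 ACBI1 sample of HCC44. By fold enrichment it ranked at 90.4 and 92.8 in H1975 and at 95.0 and 80.4 in HCC44 under DMSO.

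The regions away from genes that were listed in all 8 samples numbered 2, both in the second 4q13 stretch. One lay 9.91 kb upstream of CXCL2 at chr4:74109107-74110339. Its width was 1157 and 1110 bp under DMSO and 1101 and 1017 bp under ACBI1 in H1975, and 1152 and 1199 bp against 879 and 1097 bp in HCC44. Its percentile was 88.6 and 87.4 against 87.7 and 74.1 in H1975, and 84.3 and 69.7 against 73.5 and 58.9 in HCC44, and in H1975 its mean under DMSO was the highest of all regions around the 9 genes. The other lay 17.6 kb upstream of CXCL3 at chr4:74056280-74057421. It was 555 and 634 bp wide under DMSO and 431 and 340 bp under ACBI1 in H1975, and 1053 and 1102 bp against 554 and 613 bp in HCC44. Including the starts of CXCL1, CXCL3, CXCL2 and the SDAD1 start at 4q21, 6 of the 29 regions were listed in all 8 samples.

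At 4q21, CXCL9 (chr4:76001275-76007509), CXCL10 (chr4:76021118-76023497) and CXCL11 (chr4:76033682-76036070), all on the minus strand, had no peak within 1 kb of the start in any of the 8 samples. Their joined window, chr4:75951275-76086070, held 2 peaks in each DMSO sample of both lines and 1 in each ACBI1 sample. The difference of −1 was the same in both lines and had the smallest possible p (exact permutation test, p = 0.0556). The covered length was 1194 and 981 bp against 500 and 409 bp in H1975, and 1117 and 1222 bp against 442 and 402 bp in HCC44.

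**Figure D5:**
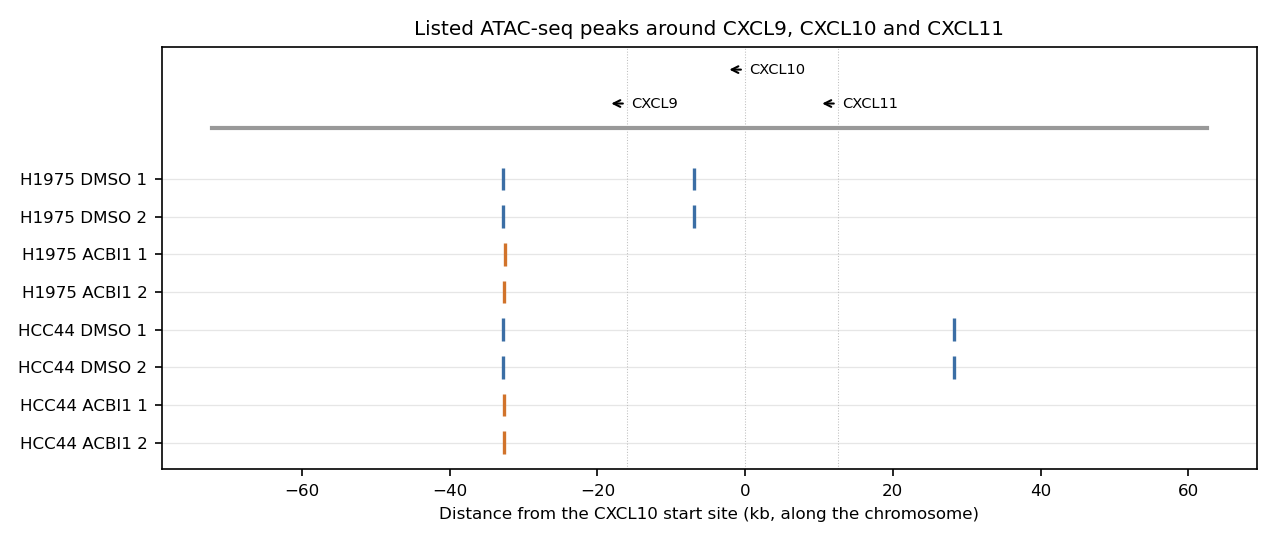
Listed peaks across the joined window of CXCL9, CXCL10 and CXCL11, with 1 line per sample, blue for DMSO and orange for ACBI1. The x axis is the distance from the CXCL10 start along the chromosome in kb, ticks mark peak midpoints and not widths, the grey bar is the window, arrows show the direction of transcription and dotted lines the start sites. All 8 samples share 1 peak and each DMSO sample has 1 more, at a different place in the 2 lines.

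The peak shared by all 8 samples lay at chr4:75990300-75991182, the start of SDAD1, a neighbouring gene that is not a chemokine. It was 810 and 667 bp wide under DMSO and 500 and 409 bp under ACBI1 in H1975, and 638 and 776 bp against 442 and 402 bp in HCC44. The further DMSO peak was not the same in the 2 lines. In H1975 it lay at chr4:76016436-76016819, 6.68 kb from the CXCL10 start, 384 and 314 bp wide at percentiles 30.4 and 21.9. In HCC44 it lay at chr4:76051478-76051956, 15.4 kb from the CXCL11 start, 479 and 446 bp wide at percentiles 26.4 and 11.1. Both lie in the annotated body of ART3, which also spans CXCL10 and CXCL11. Both ranked low, and in lists limited to 22133 peaks the difference in peak number at 4q21 was 0.25 (exact permutation test, p = 1).

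Other genes of the family were counted in the same windows for comparison. Of 16 further CXC ligand and receptor genes, 4 in H1975 (CXCL13, CXCL17, CXCR4 and CXCR6) and 6 in HCC44 (PF4V1, CXCL13, CXCR3, CXCR5, CXCR6 and ACKR3) had fewer peaks in both ACBI1 than in both DMSO samples. These are smaller shares than the 43.3% and 55.1% over all genes. A window with 0 peaks in a DMSO sample cannot meet this description. Such windows were those of PF4, PPBP, CXCL12, CXCL14, CXCR2 and ACKR3 in H1975 and of CXCL12, CXCR2 and CXCR4 in HCC44. How many of all genes had such a window was not counted. The windows of PF4 and PPBP also overlap. CXCL14 in H1975 was the only 1 with more, from 0 to 1 in each sample. The window of CXCL13, a B-cell attractant, held 4 and 2 peaks under DMSO and 1 and 0 under ACBI1 in H1975, and 4 and 4 against 0 and 0 in HCC44. The window of CXCR6, the receptor for CXCL16, held 6 and 6 against 1 and 2 in H1975, and 7 and 6 against 3 and 2 in HCC44. PF4V1 went from 10 and 11 to 3 and 3 in HCC44, in a window that overlaps those of CXCL6 and CXCL1.

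The genes whose covered length over the 8 samples was most like that of CXCL8 were CMAS, IFNB1 and PRR16, with root mean squared differences of 122, 139 and 150 bp. CXCL8 itself had covered lengths of 1154, 1035, 583 and 479 bp in H1975, DMSO samples first. In HCC44 they were 2511, 2475, 870 and 963 bp. For CXCL10, with a mean of 783 bp, the nearest were LOC124904942, NKX2-5 and RDH8 at 84.2, 118 and 124 bp. These values describe likeness in listed peaks over the same 8 samples, whose lists differed in length.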

How the data were processed

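ATAC-seq was deposited as 1 peak list per sample for 8 samples in 4 groups of 2, so peaks were called per sample. BWA and hg38 are named in the submitters' processing notes. The peak caller, its joining distance and its filters are not given in the sources used here. The lists had no header and 9 columns in the broadPeak layout. The fold enrichment is the authors' ratio over their background, the p-value and q-value were deposited as −log10 values, and the deposited score was not used. The lowest −log10 q in a list was 10.0 to 10.2. Depth in reads is unknown, and no interval was computed.

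Groups were taken from the treatment and cell line labels. Gene positions came from the RefSeq table and strands and start sites from the RefSeq promoter table (GRCh38.p14). All 9 members matched both. Python 3.11.15, numpy 2.4.6, pandas 2.3.3, scipy 1.17.1 and matplotlib 3.10.9 were used. Peaks overlapping a window by 1 bp were counted, and peaks of all samples were merged into regions by the same overlap. Differences were tested with exact permutation over samples, within lines for treatment, on code tested on simulated data. All 9 genes were named. Regions described singly were those at gene ends, the highest-ranking DMSO-only ones and the one listed only with ACBI1. The regions listed in all 8 samples, those at 4q21, the region past CXCL1 and those in MTHFD2L were chosen after their values were seen. The genes, lists and tests were chosen with earlier results of these data known. Alternatives were a −log10 q of at least 20, windows of 10 and 100 kb, midpoints, joining within 1200 bp, equal list lengths, 50% coverage, leaving out each replicate in turn and a replicate block. A cell type marker of the list is not reported here.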

Additional observations from a re-analysis of the deposited data

How the results depend on the processing

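Limiting each list to its 22133 strongest peaks reversed the ACBI1 minus DMSO difference in peak number at 4q13 (2.25) and at 4q21 (0.25) and the line difference with DMSO (−0.5). Under that limit 0 of 6 regions were DMSO-only in each line and 0 of 9 genes had fewer peaks. The HCC44 CXCL8 start peaks then fall outside the DMSO lists too. With windows of 10 kb, 1 of 6 regions was DMSO-only and 2 of 9 genes had fewer peaks in H1975. In HCC44 these were 3 of 10 regions and 2 of 9 genes. With windows of 100 kb they were 5 of 15 regions and 6 of 9 genes in H1975, and 15 of 30 and 9 of 9 in HCC44. Shares over all genes were not computed for these windows, nor shares over all genes and regions for the limited lists. Over all alternatives other than leaving out a replicate, 58 of 72 values were classed as the same, 11 as moved and 3 as reversed. For a difference the class rested in effect on its sign and not its size, so one classed as the same could still shrink. The 4q13 covered length went from −6063 bp to −459.5 bp in lists of 22133 peaks and was classed as the same. So was the 4q13 peak number, which went from −6 to −2.25 with windows of 10 kb. With a −log10 q of at least 20, the CXCL8 start still had a peak in 0 HCC44 ACBI1 samples, and 2 of 4 member start sites in HCC44 kept theirs.

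Leaving out each replicate gave −6.5 to −5.5 peaks and −6389 to −5738 bp at 4q13, 0.324 to 0.848 per 10000, −1 at 4q21 and 12.5 to 13.5 for the line difference. DMSO-only regions numbered 3 to 4 (H1975) and 12 to 14 (HCC44), and genes with fewer peaks 4 to 5 and 7 to 9. The replicate block gave −6 peaks at 4q13 (exact permutation test, p = 0.25), and the other differences tested with it kept their values. The labels do not say whether same-numbered samples were paired. Their deviations correlated at 0.113 in H1975 and 0.0455 in HCC44, and with 2 replicates per group these values cannot decide it. No depth in reads was known, so weak peaks are limited by an unknown sensitivity.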
